A study of Mus musculus with 60 samples.

Results

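Nascent transcription of 10 genes, each 1 row of a count table of 27665 transcripts, was followed while degrons took cohesin or CTCF from cultured mouse cells: the Wnt ligands Wnt7a and Wnt7b, and Dkk1, Axin2, Lef1, Sp5, Nkd1, Notum, Cdx2 and Tcf7, which act in the Wnt pathway or respond to it. The rows were found by matching the Ensembl transcript IDs of the table to GENCODE M21 and taking those of the 10 symbols. The set was selected on the fall of Wnt7a in neural progenitors 2 h after RAD21 loss, which earlier results of these data had shown (log2 fold change −2.30 here), and the other members were added for their place in the pathway. All Wnt7a values that rest on those neural progenitor libraries are therefore given as a description, without a test, and Wnt7a is left out of every count and median of members there.

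Transcription was measured by EU-seq, in which RNA made during a pulse of 20 min with 0.5 mM 5-ethynyl uridine is captured and sequenced, in 60 libraries of 20 groups. Mouse embryonic stem cells (mESCs) of 4 kinds were used. RAD21-AID cells carry the cohesin subunit RAD21 fused to a degron and lost it on 500 µM of the auxin IAA for 4 h, in an initial experiment with 2 control and 2 treated libraries and an additional one with 12 of each. CTCF-AID cells were given 500 µM IAA for 6 h, with 2 unstranded and 2 stranded libraries in each arm. CTCF YF-AA cells carry a CTCF mutated at 2 residues that contact cohesin, degron-tagged on both alleles, and received dTAG13, 200 nM per the labels, for 2 or 4 h. The delN/delC cells carry an N-terminally truncated CTCF on one allele, removed by 100 nM AGB1, and a C-terminally truncated one on the other, removed by 100 nM dTAG13 per the labels. These 2 agents were given alone or together for 2 h. RAD21-AID mESCs were also differentiated to neural progenitor cells (NPCs), which received IAA for 1, 2 or 4 h or A-485 at 10 µM for 1 h, which blocks histone acetylation by CBP and p300. Every group apart from the additional mESC experiment had 2 libraries, and those of delN/delC were stranded. No library came from cells that lack the degron but received IAA, dTAG13 or AGB1. An effect of the agent itself and the loss of its target therefore cannot be told apart in any depletion. Whether each engineered line is 1 clone is not given in the sources used here. The labels give the mESC medium 3 µM of the GSK3 inhibitor CT-99021, 1 µM of the MEK inhibitor PD0325901 and LIF, and repeat that text for the NPC libraries. The study's methods instead describe an NPC medium with FGF2 and EGF and name no CT-99021 in it. Which medium the labelled NPCs were in is therefore not settled here, and where the media differ, cell type and Wnt stimulation cannot be told apart.

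In canonical Wnt signalling a secreted, lipid-modified Wnt binds a Frizzled receptor and its co-receptor LRP5 or LRP6, which stops a complex of Axin, APC and GSK3 from marking β-catenin for destruction. β-catenin then enters the nucleus and switches on genes bound by TCF/LEF factors. Many of these targets act back on the pathway: Axin2 rebuilds the destruction complex, Nkd1 binds Dishevelled, Notum strips the lipid from Wnts and Dkk1 blocks the co-receptor. A GSK3 inhibitor starts the cascade below the receptor, without a Wnt ligand. Wnt7a and Wnt7b are known for their roles in the developing nervous system.

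Library totals ranged from 4027449 to 21898781 counts, the lowest being a YF-AA control. All 8 mESC markers examined summed to between 3091 and 5124 CPM (counts normalised to library size) in mESC libraries and to between 24.3 and 68.0 CPM in NPC libraries. The 8 NPC markers, among them Fabp7 and Olig2, summed to between 28.1 and 53.1 CPM in mESC libraries, to between 459 and 548 CPM in NPC libraries with or without IAA and from 177 CPM upward with A-485. Counted over gene bodies, a sum over 5 neuron markers lay between 276 and 278 CPM in NPC controls. After 2 or 4 h of IAA it lay between 222 and 237 CPM. Most of it was Map2, between 151 and 200 CPM in these libraries. Dcx lay between 24.5 and 36.0, Tubb3 between 23.6 and 31.5, Rbfox3 between 14.0 and 23.8 and Neurod1 between 0.607 and 1.98 CPM. In mESC libraries Tubb3 reached 57.4 and Neurod1 3.55 CPM. A sum over 3 astrocyte markers lay between 55.7 and 58.4 CPM in controls, between 40.7 and 42.8 CPM at 2 h and between 38.5 and 43.0 CPM at 4 h, nearly all of it Aldh1l1, with Gfap at 1.61 CPM or less and Aqp4 at 0.559 CPM or less. Over the first 90 kb, the neuron sum went from 108 CPM in both controls to between 98.9 and 99.6 CPM after 1 h of IAA and between 53.0 and 53.4 CPM with A-485, and the astrocyte sum from between 60.8 and 63.7 CPM to between 48.5 and 52.1 CPM and between 22.4 and 26.6 CPM. Both sums were thus lower in treated NPC libraries than in controls, and with A-485 the sum of NPC markers was lower too. The part of these sums in the NPC results was not tested. In these bulk libraries, fewer cells of a type and less RNA per cell cannot be told apart.

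TCF/LEF factors recognise DNA of the form CTTTGAA or CTTTGAT. Of the 8 members with an entry among RefSeq promoter sequences (GRCm38.p6), 2 held one of these words on either strand within 250 bases before the RefSeq start, namely Dkk1 and Sp5. Among all 32851 promoters in that table, 7.48% held either word, 4.46% CTTTGAA and 3.21% CTTTGAT. The sites are shown with the bases around them because both genes recur in the results, with the matched word in capitals, written 5′ to 3′ on the strand of the gene.
Dkk1, chr19:30549595-30549624, minus strand: tcctcccaaagCTTTGAAatcccatcccgg
Sp5, chr2:70474808-70474837, plus strand: ggcaaggccccCTTTGATcaggaaaatcca
The word lies 117 bases before the RefSeq start of Dkk1, inside the transcript counted in the table, and 104 bases before that of Sp5. Such a match is a description of the sequence only. Wnt7a, Axin2, Lef1, Nkd1, Cdx2 and Tcf7 held neither word in this window, Wnt7b and Notum had no entry, and the RefSeq start used for Nkd1 lies 6279 bases from the counted one.

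The first question was where the genes are transcribed in untreated cells. Levels between genes are compared here only as RPKM, the CPM per kilobase of the counted gene body. In the 12 additional RAD21-AID mESC controls the order was Sp5 (12.4 ± 0.83), Axin2 (7.59 ± 0.24), Notum (7.29 ± 0.46), Tcf7 (3.59 ± 0.12), Cdx2 (0.673 ± 0.098), Dkk1 (0.393 ± 0.079), Lef1 (0.242 ± 0.015), Nkd1 (0.0925 ± 0.013), Wnt7b (0.0234 ± 0.0053) and Wnt7a (0.0199 ± 0.0050 RPKM, SD, n = 12). Axin2 and Notum, and Wnt7b and Wnt7a, were neighbours that lay within their spread. In the 2 NPC controls Axin2 led at 1.92 ± 0.0090 RPKM, followed by Tcf7 at 1.14 ± 0.030, Wnt7a at 0.493 ± 0.040, Sp5 at 0.442 ± 0.013 and Wnt7b at 0.397 ± 0.023 RPKM. Lef1 (0.237 ± 0.0086), Nkd1 (0.230 ± 0.0026) and Dkk1 (0.214 ± 0.067 RPKM) lay within their spread of each other. Notum stood at 0.0533 ± 0.042 RPKM and Cdx2 at 0 in both. Of these, Wnt7a and Sp5 lay within their spread of each other.

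**Figure D1:**
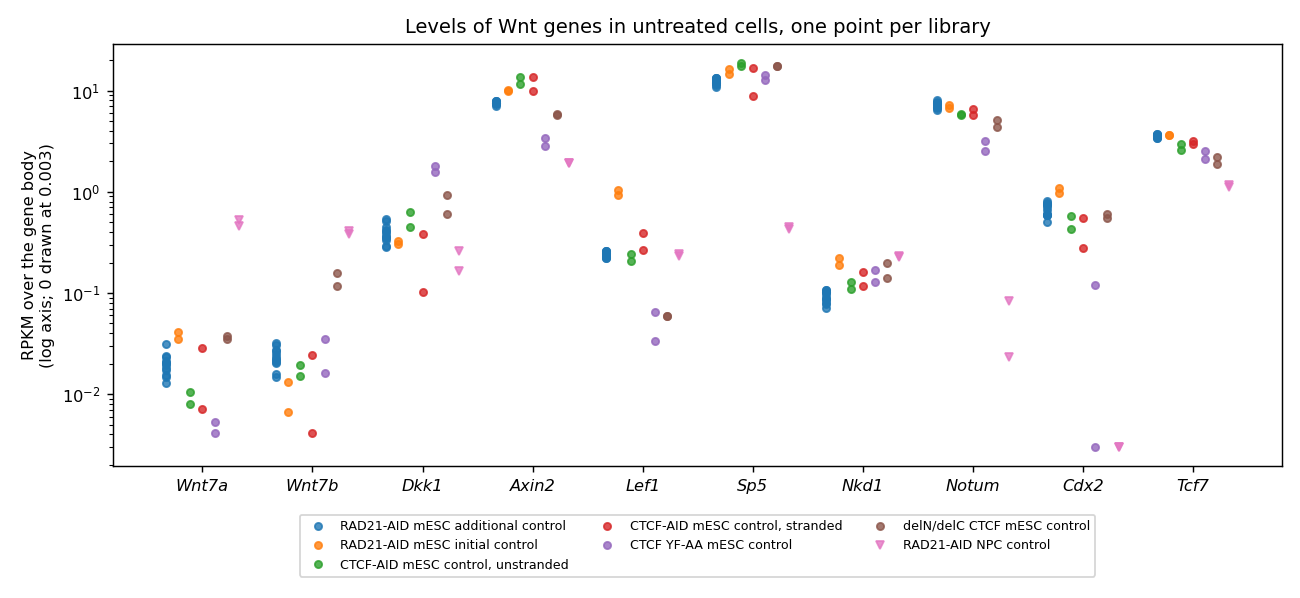
Level of each gene (RPKM over the counted gene body, log axis) in every untreated library, with mESC groups as circles and NPC controls as triangles. Wnt7a and Wnt7b lie highest in the NPC controls, while Sp5, Notum, Axin2 and Tcf7 lie lowest there. Cdx2 is at 0 in both NPC controls and in 1 YF-AA control, and Lef1 separates the mESC lines, from a mean of 0.0490 RPKM in YF-AA to 0.991 RPKM in the initial RAD21-AID controls.

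Set against the 12 additional mESC controls, 8 of the 9 members other than Wnt7a passed the edgeR test in NPC controls (adjusted p under 0.05), where 89.8% of 17290 genes tested passed, 45.4% higher and 44.4% lower. Of these 2 were higher and 6 lower. With a change of at least 2-fold the count was 7, against 45.5% of all genes. The ligands were high in NPCs: Wnt7a read 24.7 and 22.0 CPM in the 2 NPC controls and between 0.610 and 1.5 CPM in the mESC controls. Wnt7b read 17.9 and 19.4 CPM in NPC against 0.703 to 1.52 CPM in mESC controls, 17.3-fold higher (log2 fold change 4.12, SE 0.13, adjusted p = 8.75e-33). For Wnt7a, which was chosen on NPC values, these levels are a description only.

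Among response genes the direction was mostly the opposite. Sp5, a zinc finger factor and direct Wnt target, read 1.21 and 1.27 CPM in NPC controls and 30.6 to 37.7 CPM in mESC controls, 26.9-fold lower (adjusted p = 1.03e-35). Notum counted only 3 and 12 reads in the NPC controls, 0.166 and 0.585 CPM, against 45.5 to 57.4 CPM in mESCs (log2 fold change −6.96, SE 0.16, adjusted p = 2.33e-39). Cdx2, a homeobox factor of trophectoderm and posterior embryo, had no read in either NPC control and 4.35 ± 0.63 CPM in mESCs (n = 12), at least 27.9-fold lower when 3 counts per NPC library are taken as the floor. Axin2 was 3.84-fold lower in NPCs (58.3 ± 0.27 against 231 ± 7.2 CPM, adjusted p = 2.52e-40) and Tcf7, which encodes TCF-1, 3.04-fold lower (34.4 ± 0.89 against 108 ± 3.7 CPM, adjusted p = 2.15e-34). Nkd1 was the exception, at 16.6 ± 0.19 CPM in NPC and 6.69 ± 0.91 CPM in mESC controls (log2 fold change 1.37, SE 0.10, adjusted p = 1.68e-16), but against the 2 initial mESC controls its difference was 0.10 (SE 0.13, adjusted p = 0.413). Dkk1 read 0.994 and 0.634 CPM in NPC controls, 1.79-fold lower (adjusted p = 0.00204), and lost the call without NPC control replicate 2 (adjusted p = 0.105).

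Lef1, a TCF/LEF factor, depended on which mESC experiment was used. It read 25.4 to 29.9 CPM in the additional controls, with 27.7 and 26.3 CPM in NPC controls, and did not pass the test (log2 fold change 0.01, SE 0.06, adjusted p = 0.221). The initial mESC controls of the same line read 106 and 120 CPM, and against these Lef1 was lower in NPCs (−2.14, SE 0.08, adjusted p = 2.67e-29). The experiment and any change of the cells between the 2 experiments cannot be told apart.

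The next question was what RAD21 loss does to these genes in NPCs over time. The 1, 2 and 4 h comparisons and the A-485 one share their 2 control libraries, so their values are set side by side only. At 1 h and for A-485 the reads were counted over the first 90 kb of each gene, in controls too, a limit that reaches only Lef1 among the members (113.9 kb). Besides Wnt7a, 6 of 9 members had a mean count above 20 in either group and were tested, while Dkk1, Notum and Cdx2 were not. At 1 h, 2 passed (15.7% of 15860 genes tested did, 8.34% higher and 7.4% lower), both higher. At 2 h, 2 passed (14.6% of 15995, 5.35% higher and 9.21% lower), 1 higher and 1 lower. At 4 h, 4 passed (39.5% of 16148, 18.4% higher and 21.1% lower), 1 higher and 3 lower. The median log2 fold change of the 6 was 0.00 at 1 h, −0.24 at 2 h and −0.38 at 4 h, beside −0.03, −0.04 and −0.02 over all genes tested.

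Both ligands stood lower in IAA libraries at 2 and 4 h. Wnt7a stood at 26.9 and 24.0 CPM in controls counted over 90 kb and at 13.5 and 13.3 CPM after 1 h of IAA. Counted over the gene body, it stood at 24.7 and 22.0 CPM in controls, 4.24 and 5.68 CPM at 2 h, and 3.41 and 2.67 CPM at 4 h. Its log2 fold changes were −0.93 (SE 0.10) at 1 h, −2.30 (SE 0.16) at 2 h and −2.96 (SE 0.14) at 4 h. Wnt7b passed the test at 2 and 4 h, lower at both. It read 17.9 and 19.4 CPM in controls, 14.5 and 11.9 CPM at 2 h, and 9.31 and 9.53 CPM at 4 h. The 1 h value, −0.12 (SE 0.10, adjusted p = 0.579), did not pass, the 2 h value was −0.51 (SE 0.13, adjusted p = 0.0302) and the 4 h value −1.02 (SE 0.11, adjusted p = 1.13e-08). The 2 h call of Wnt7b was lost by DESeq2 (adjusted p = 0.0851) and without control replicate 1 (0.0689) or control replicate 2 (0.222).

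Axin2 went the other way at all 3 times. It read 63.4 and 63.8 CPM in controls counted over 90 kb and 144 and 156 CPM after 1 h, a 2.34-fold rise (log2 fold change 1.22, SE 0.05, adjusted p = 2.66e-13). Over the gene body, controls read 58.1 and 58.5 CPM, 2 h libraries 110 and 99.5 CPM and 4 h libraries 91.7 and 92.9 CPM. The rise was 1.76-fold at 2 h (adjusted p = 1.85e-05) and 1.55-fold at 4 h (adjusted p = 1.18e-12). Sp5 was also up at 1 h, from 1.33 and 1.38 CPM (22 and 26 reads) to 3.11 and 3.60 CPM (46 and 60 reads), 2.45-fold (log2 fold change 1.29, SE 0.27, adjusted p = 0.00166 by edgeR), while DESeq2 gave it no adjusted p. It did not pass at 2 h (1.96 and 1.30 CPM, adjusted p = 0.384) or at 4 h (1.24 and 0.930 CPM, adjusted p = 0.716). Whether the Axin2 or Sp5 values differ between times was not tested.

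Lef1 and Nkd1 passed the test at 4 h, both lower. Lef1 read 27.7 and 26.3 CPM in controls and 18.3 and 16.7 CPM at 4 h, a fall of 1.57-fold (log2 fold change −0.65, SE 0.09, adjusted p = 7.61e-07), after values of −0.09 at 1 h (adjusted p = 0.706) and −0.31 at 2 h (adjusted p = 0.101) that did not pass. Nkd1 read 16.5 and 16.8 CPM in controls and 11.2 and 12 CPM at 4 h (−0.55, SE 0.11, adjusted p = 0.000214), with −0.43 (adjusted p = 0.0552) at 2 h. The 2 h value passed with the replicate numbers as a block (adjusted p = 0.0206), without the count filter (0.0257) and without treated replicate 2 (0.0146), and that of Lef1 passed without treated replicate 2 (0.0270). Tcf7 passed at none of the times, with log2 fold changes of 0.09, −0.16 and 0.02 and standard errors of 0.07 to 0.09. Its gene body shares 56.8% of its length with a lincRNA on the same strand, and reads of the 2 genes cannot be told apart. Notum likewise overlaps an antisense gene over 46.5% of its body, and whether counting used strand is not given in the sources used here. Of the untested members, Dkk1 counted 18 and 13 reads in controls, 3 and 2 at 2 h and 6 and 4 at 4 h, and at 2 h it passed when the count filter was dropped (log2 fold change −2.22, SE 0.77, adjusted p = 0.0362). Notum counted between 0 and 12 reads in the control and IAA libraries and Cdx2 none in any of them.

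**Figure D2:**
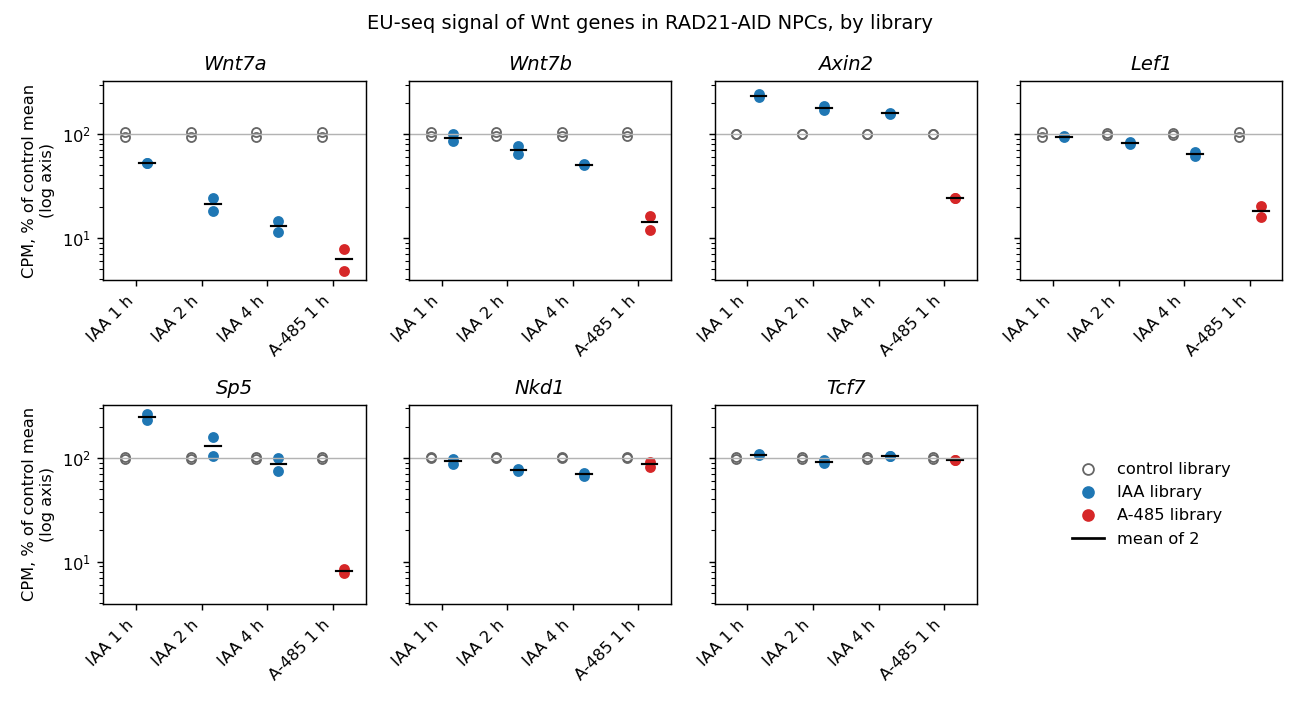
CPM of each tested member in every NPC library as a percentage of the mean of the 2 controls counted over the same region (log axis), with open circles for controls, blue for IAA, red for A-485 and a bar for the mean of 2 treated libraries. Wnt7a steps down from 1 h to 4 h of IAA, Axin2 stays above the controls at all 3 times of IAA, and Tcf7 stays near 100% throughout.

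A-485 was used to compare cohesin loss with the loss of CBP and p300 activity. After 1 h, 4 of the 6 tested members other than Wnt7a passed, all lower and all by at least 2-fold. At that fold 21% of 16009 genes tested passed, 20.2% lower, and without the fold 67.7% passed, 32.4% higher and 35.3% lower. The median of the 6 was −2.36 on the log2 scale, beside −0.11 over all genes. The values are relative to the median of expressed genes, which lay at 0.12 before centring. Wnt7a stood at 1.21 and 2.00 CPM against 26.9 and 24.0 CPM in controls (log2 fold change −4.08, SE 0.18). Wnt7b fell to 2.42 and 3.32 CPM from 19.5 and 21.2 CPM, 7.63-fold (adjusted p = 2.81e-10).

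The response genes that rose with IAA at 1 h fell with A-485. Axin2 read 15.4 and 15.6 CPM, 4.45-fold below its controls (log2 fold change −2.16, SE 0.08, adjusted p = 1.95e-12). Sp5 had 2 reads in each A-485 library against 22 and 26 in controls, a ratio of 0.0812 with an exact 95% interval of 0.0213 to 0.222 that covers counting error only (adjusted p = 6.08e-05 by edgeR). Lef1, over its first 90 kb, read 3.63 and 4.69 CPM against 24.4 and 21.6 CPM, 5.95-fold lower (adjusted p = 5.12e-10). Nkd1 (16.5 and 14.9 against 18.0 and 18.3 CPM, log2 fold change −0.33, SE 0.11, adjusted p = 0.105) and Tcf7 (35.8 and 36.1 against 38.3 and 36.9 CPM, −0.18, SE 0.08, adjusted p = 0.526) did not pass. Without A-485 replicate 1 the log2 fold change of Nkd1 was −0.40. Since 1 h of IAA and 1 h of A-485 share controls, the opposite signs of Axin2 and Sp5 are given as the values of each comparison.

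In RAD21-AID mESCs, several response genes were higher by small amounts after 4 h of IAA, and Dkk1 by more. In the additional experiment 8 members were tested and 6 passed, 5 higher and 1 lower, where 58.3% of 15732 genes passed, 31% higher and 27.4% lower. At 2-fold or more only Dkk1 passed, against 0.845% of genes. Dkk1, a secreted antagonist, ranged from 1.09 to 2.04 CPM (median 1.44) in 12 controls and from 4.06 to 5.66 CPM (median 4.85) in 12 treated libraries, 3.22-fold (log2 fold change 1.69, SE 0.10, adjusted p = 1.58e-20). The initial experiment gave 1.15 and 1.23 CPM in controls and 3.37 and 5.03 CPM in treated libraries, 3.51-fold (log2 fold change 1.81, SE 0.35, adjusted p = 1.31e-05), a call lost without its treated replicate 2 (adjusted p = 0.068). Groups did not overlap in either experiment. In the initial experiment 3 of 9 tested members passed, all higher, where 8.63% of 15177 genes did, 3.4% higher and 5.23% lower, and 0.461% by at least 2-fold.

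Lef1 rose in both experiments, from a range of 25.4 to 29.9 CPM (median 27.9) to 39.0 to 45.2 CPM (median 42.6) in the additional one (1.54-fold, adjusted p = 1.76e-22), and from 106 and 120 to 153 and 139 CPM in the initial one (1.29-fold, adjusted p = 6.39e-05, lost without treated replicate 1 at 0.125). Sp5 rose 1.23-fold in each, from 30.6 to 37.7 CPM (median 34.3) to 37.9 to 46.7 CPM (median 42.0) in the additional experiment (adjusted p = 3.16e-10) and from 46.2 and 41.2 to 54.5 and 52.7 CPM in the initial one (adjusted p = 0.0218, lost by DESeq2 at 0.242, with replicate numbers as a block at 0.0501, and without control replicate 2 or either treated replicate at 0.213 to 0.295). Axin2 rose 1.17-fold in the additional experiment (medians 231 and 265 CPM, adjusted p = 8.51e-13), while its initial value of 0.08 (SE 0.08, adjusted p = 0.647) did not pass. Cdx2 rose 1.42-fold (medians 4.44 and 6.11 CPM, adjusted p = 1.12e-07) and Tcf7 was the member that fell, by 1.15-fold (medians 108 and 92.5 CPM, adjusted p = 6.85e-11). Neither passed in the initial experiment, with adjusted p of 0.433 and 0.285. Nkd1 (−0.04, SE 0.08) and Notum, the Wnt deacylase (0.04, SE 0.03) did not pass in the additional experiment, and their groups overlapped.

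Both ligands lay below the count filter in the additional experiment. Wnt7a ranged from 0.610 to 1.5 CPM in controls and from 1.00 to 1.74 CPM with IAA, and Wnt7b from 0.703 to 1.52 CPM and from 0.609 to 1.42 CPM, with overlap in both. Within the libraries that carry the batch label CC53, Wnt7a passed the filter and the test (log2 fold change 0.46, SE 0.15, adjusted p = 0.0076), and Dkk1 stood at 1.69 (SE 0.10). In the initial experiment Wnt7a was tested, at 1.68 and 1.94 CPM in controls and 3.27 and 2.75 CPM with IAA, and did not pass (log2 fold change 0.72, SE 0.34, adjusted p = 0.198).

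The change after 4 h of IAA was then compared between the cell types, as the difference between the NPC and the additional mESC effects in 1 model. Besides Wnt7a, all 9 members were tested and 6 passed, 2 higher and 4 lower, where 33.4% of 17538 genes did, 15.1% higher and 18.3% lower. Lef1 moved in opposite directions (−0.65 in NPC, 0.62 in mESC, difference −1.26, SE 0.09, adjusted p = 3.65e-17). The difference for Dkk1 was −3.20 (SE 0.48, adjusted p = 1.96e-07), resting on 18 and 13 reads in NPC controls against 6 and 4 with IAA. Axin2 rose more in NPCs, by 0.42 on the log2 scale (SE 0.06, adjusted p = 8.65e-08). The change of Nkd1 was lower in NPCs by −0.50 (SE 0.15, adjusted p = 0.0124), a call lost without NPC control replicate 2 (0.0552) or IAA replicate 1 (0.0853). Wnt7b differed by −0.80 (SE 0.22, adjusted p = 0.00338) and Tcf7 by 0.23 (SE 0.08, adjusted p = 0.0053). The difference of Wnt7a was −3.43 (SE 0.22), and Cdx2, without a read in the NPC libraries compared, has no difference that can be estimated. With the initial mESC experiment in its place, Wnt7b (adjusted p = 0.0626) and Tcf7 (0.217) no longer passed.

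In CTCF-AID cells, 6 h of IAA went with the largest rise of any member in any depletion, that of Dkk1. It read 1.72 and 2.42 CPM in unstranded controls and 34.7 and 43.5 CPM with IAA, and 1.46 and 0.387 CPM in stranded controls and 26.4 and 3.14 CPM with IAA. All 4 treated libraries lay above all 4 controls. With library type in the model the change was 18.5-fold (log2 fold change 4.21, SE 0.67, adjusted p = 0.0137). Stranded replicate 2 stood apart in both arms, with the lowest Dkk1 and Sp5 values of its group.

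Nkd1, the Dishevelled-binding inhibitor, rose 2.39-fold, from 9.26, 7.95, 11.6 and 8.52 CPM to 22.8, 17.2, 29.7 and 19.2 CPM (log2 fold change 1.26, SE 0.18, adjusted p = 0.00958), again without overlap. These 2 of 8 tested members passed in this fit, which has no term for same-numbered libraries. Both were higher, and by at least 2-fold. Over 15611 genes 3.58% passed, 1.57% higher and 2.01% lower, and 1.45% did so by at least 2-fold. The median of the 8 was 0.79, beside 0.02 over all genes. Sp5 (49.5, 52.4, 46.8 and 24.5 CPM in controls; 117, 121, 114 and 31.3 CPM with IAA) had a log2 fold change of 1.14 (SE 0.36, adjusted p = 0.173).

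Libraries with the same number deviated together here, and with those numbers as a block 6 of the 8 passed and 4554 genes in all instead of 559. Dkk1 was then 4.12 (SE 0.16, adjusted p = 1.55e-08), Nkd1 1.24 (SE 0.10, adjusted p = 3.25e-06), Sp5 1.05 (SE 0.12, adjusted p = 8.12e-05), Cdx2 0.97 (SE 0.17, adjusted p = 0.00158), Axin2 0.39 (SE 0.06, adjusted p = 0.00111) and Tcf7 0.23 (SE 0.05, adjusted p = 0.0109), all higher. Lef1 (0.56, SE 0.20, adjusted p = 0.0633) and Notum (0.14, SE 0.06, adjusted p = 0.204) did not pass. Within unstranded libraries alone the log2 fold change of Dkk1 was 4.25 (SE 0.21, adjusted p = 0.000155) and that of Nkd1 1.23 (adjusted p = 0.00865). Within stranded libraries alone no gene passed, with Dkk1 at 4.09 (SE 1.27, adjusted p = 1) and Nkd1 at 1.29 (SE 0.32, adjusted p = 0.863). Without the library type term the Dkk1 call was lost (adjusted p = 0.0552), as it was without unstranded control 1 (0.0816), unstranded control 2 (0.0697) or unstranded IAA 2 (0.0587). Nkd1 was lost without unstranded control 2 (0.0521). Without stranded IAA replicate 2 the count of members past the test rose to 5, with Sp5 at 1.43 (adjusted p = 0.0104), Lef1 at 0.82 (0.0399) and Axin2 at 0.57 (0.0493).

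**Figure D3:**
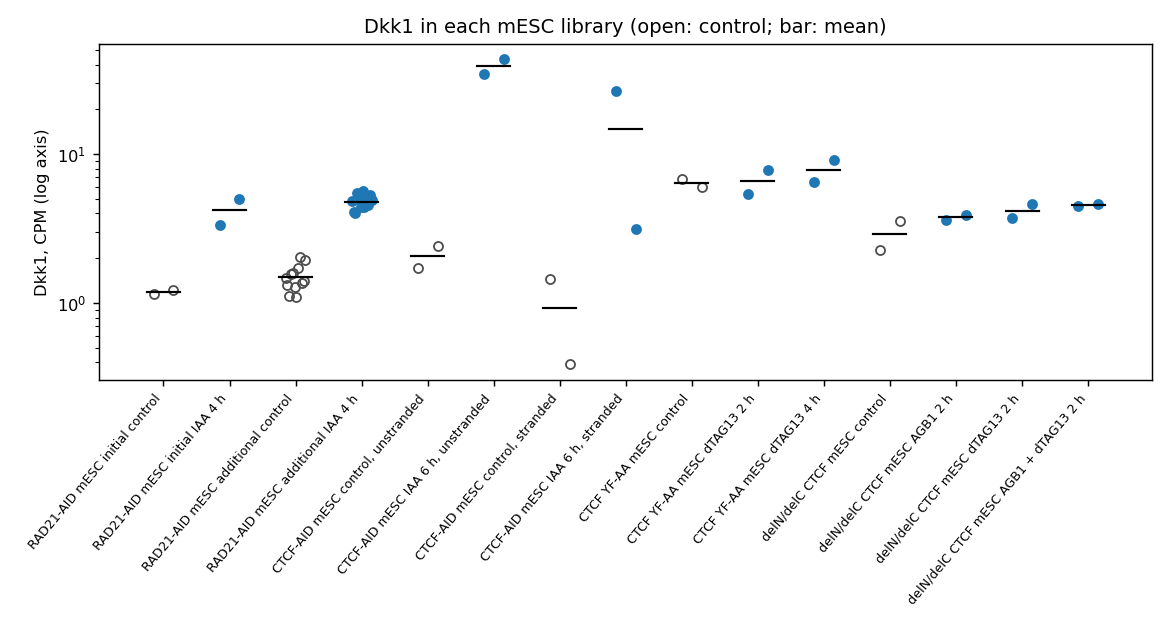
Dkk1 CPM (log axis) in each mESC library, open for controls and filled for treated, with a bar at the group mean. Dkk1 was higher with IAA in RAD21-AID and CTCF-AID cells, where treated libraries reach 43.5 CPM. YF-AA and delN/delC libraries lie between 2.28 and 9.21 CPM with or without depletion. Agent, time, cell line and starting level differ together between these sets, so they are shown side by side only.

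Removal of the CTCF mutants moved few members. In YF-AA cells, 1 of 7 tested members passed at 2 h, where 3.94% of 14009 genes did, 1.24% higher and 2.7% lower: Tcf7 read 76.4 and 64.4 CPM in controls and 86.3 and 86.0 CPM at 2 h (log2 fold change 0.33, SE 0.10, adjusted p = 0.0281). That call was lost by DESeq2 (adjusted p = 0.516), with the replicate block (0.0805), without the count filter (0.0618), and without control replicate 2 (0.656), treated replicate 1 (0.132) or treated replicate 2 (0.162). At 4 h none of 8 passed (0 by edgeR, 1 at an unadjusted p under 0.05, 0 by DESeq2; 4.99% of 14280 genes passed, 1.6% higher and 3.4% lower), with Tcf7 at 0.25 (SE 0.09, adjusted p = 0.126, or 0.0217 without control replicate 1). Dkk1 read 6.83 and 5.98 CPM in controls, 5.42 and 7.81 CPM at 2 h and 6.53 and 9.21 CPM at 4 h, with log2 fold changes of 0.13 (SE 0.33) and 0.34 (SE 0.28) that did not pass. The other tested members lay between −0.15 (Lef1, SE 0.38) and 0.39 (Nkd1, SE 0.24) at 2 h and between −0.32 (Notum, SE 0.18) and 0.87 (Wnt7b, SE 0.50) at 4 h. The 2 times share their controls.

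The YF-AA line itself differed from CTCF-AID cells before any treatment. Against the 2 unstranded CTCF-AID controls, 6 of 8 tested members passed, 1 higher and 5 lower, where 47.7% of 15660 genes passed, 24.5% higher and 23.2% lower. Axin2 read 103 and 86.4 CPM against 353 and 411 CPM, 4.21-fold lower (adjusted p = 5.11e-10), and Lef1 7.34 and 3.82 CPM against 23.5 and 27.8 CPM, 5.29-fold lower (adjusted p = 1.08e-06). Notum was 2.13-fold lower (22.5 and 17.9 against 40.3 and 41.3 CPM, adjusted p = 1.56e-05), and Dkk1 2.96-fold higher (6.83 and 5.98 against 1.72 and 2.42 CPM, adjusted p = 0.00103). Cdx2 had 0 and 8 reads in YF-AA controls against 52 and 37 (log2 fold change −2.58, SE 0.59, adjusted p = 0.00229). The size of that Cdx2 difference rested on the 8 reads, since it was −8.13 (SE 1.73) without YF-AA control replicate 2 and −2.09 (SE 0.52) without replicate 1. Sp5 was 1.39-fold lower (adjusted p = 0.00514, lost without YF-AA control replicate 2 at 0.105). Against the stranded controls instead, Sp5 turned to 0.12 (SE 0.31, adjusted p = 0.821) and Cdx2 no longer passed (adjusted p = 0.118). The mutation, the degron tag, the clone and the experiment cannot be told apart in this comparison. The labels do not state the library type of YF-AA, so a part of library type cannot be told apart either.

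In delN/delC cells the 3 arms share 2 controls. AGB1 alone and dTAG13 alone moved no member past the test: 0 of 9 by edgeR and 0 by DESeq2 in each, with 1 and 0 at an unadjusted p under 0.05, where 2.14% of 13619 genes passed with AGB1 (0.653% higher and 1.49% lower) and 0.0808% of 13618 with dTAG13 (0.0734% higher and 0.00734% lower). With both agents 2 of 9 passed, each lower, where 6.59% of 13753 genes did, 2.04% higher and 4.55% lower. Wnt7b read 7.35 and 5.47 CPM in controls, 4.26 and 6.18 CPM with AGB1, 6.46 and 4.86 CPM with dTAG13 and 3.01 and 3.58 CPM with both (log2 fold change −0.97, SE 0.26, adjusted p = 0.0167). Cdx2 read 3.93 and 3.57 CPM in controls, 2.88 and 2.71 CPM with AGB1, 4.54 and 3.14 CPM with dTAG13 and 1.19 and 2.08 CPM with both (−1.24, SE 0.34, adjusted p = 0.0211). Both calls rested on few reads, 58 and 46 against 33 and 31 for Wnt7b and 31 and 30 against 13 and 18 for Cdx2, and both were lost by DESeq2 (adjusted p = 0.265 and 0.348), without control replicate 1 (0.237 and 0.144) and without treated replicate 1 (0.141 and 0.308). Cdx2 was also lost without control replicate 2 (0.0803). Dkk1 stood at 2.28 and 3.57 CPM in controls and at 4.48 and 4.61 CPM with both agents (0.62, SE 0.29, adjusted p = 0.231). The other 6 tested members lay between −0.35 (Lef1, SE 0.24) and 0.27 (Nkd1, SE 0.16) with both agents. With AGB1 alone the 9 lay between −0.42 (Cdx2, SE 0.30) and 0.36 (Dkk1, SE 0.31), and with dTAG13 alone between −0.20 (Wnt7b, SE 0.24) and 0.52 (Dkk1, SE 0.30).

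**Figure D4:**
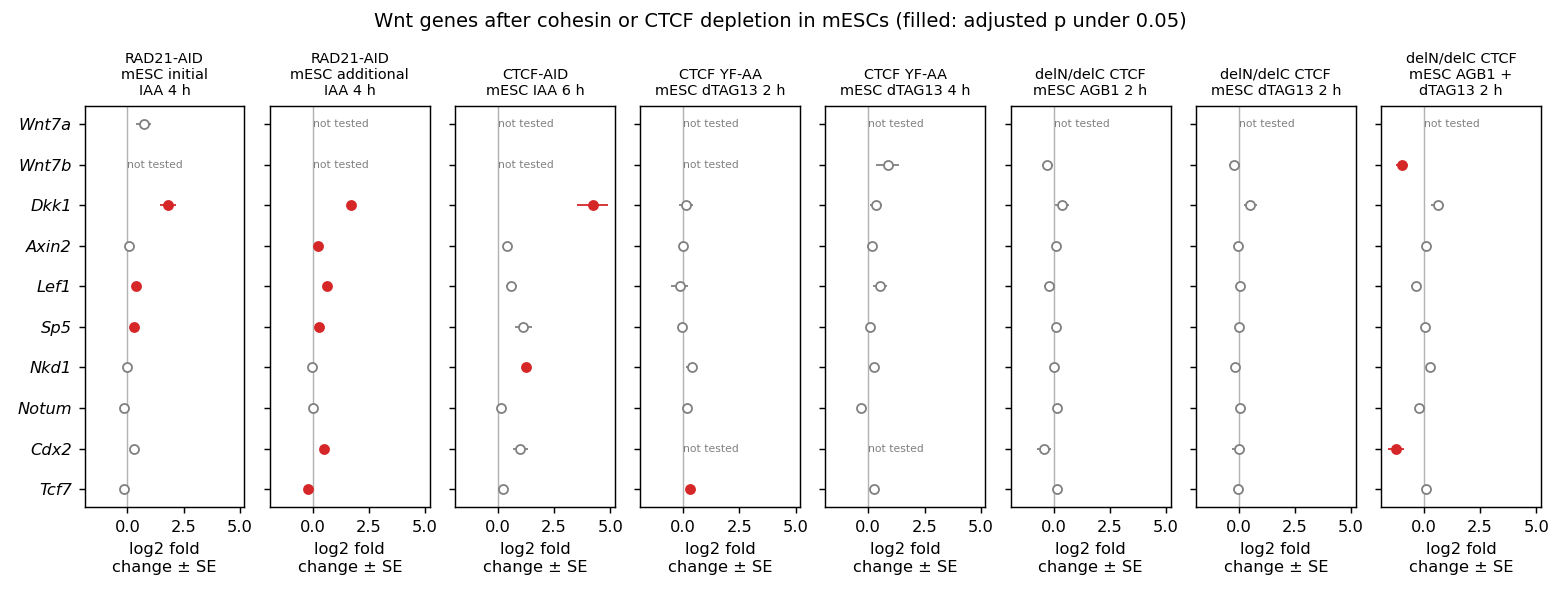
Log2 fold change ± SE of each member in the 8 mESC depletion comparisons, filled red where the adjusted p was under 0.05 and open where it was not; members below the count filter are marked as not tested. Dkk1 lies at 1.81, 1.69 and 4.21 in the first 3 panels, while most values in the YF-AA and delN/delC panels lie near 0. The CTCF-AID panel shows the fit without a term for same-numbered libraries.

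The wider pathway was described with 97 other genes in 8 lists, all in the table. After 4 h of IAA in NPCs 14 of 77 tested rose and 28 fell, 54.5% in all against the 39.5% of all genes, and their median was −0.09. The R-spondin axis, whose ligands amplify Wnt signals through LGR receptors, had 5 of 8 lower and none higher, including Rspo2 (6.08 ± 0.089 to 1.06 ± 0.026 CPM, 5.80-fold, adjusted p = 4.54e-10) and Rspo3 (22.8 ± 2.5 to 9.67 ± 1.1 CPM, 2.40-fold, adjusted p = 1.35e-10; n = 2 each). Among other Wnt ligands 3 of 9 fell and 2 rose, with Wnt11 4.61-fold lower (adjusted p = 3.64e-10) and Wnt9a 2.09-fold higher (adjusted p = 3.54e-08). Of 18 receptors 6 fell and 2 rose, Ror1 falling 2.39-fold (adjusted p = 5.20e-19). Secreted inhibitors had 4 higher and 5 lower of 10. At low levels, Sostdc1 was 2.93-fold lower (1.23 ± 0.36 to 0.422 ± 0.061 CPM, adjusted p = 0.00648) and Wif1 2.24-fold lower (2.78 ± 0.13 to 1.25 ± 0.37 CPM, adjusted p = 0.00195; n = 2 each). Passing higher and lower were intracellular components 3 and 3 of 16, nuclear factors 3 and 4 of 9, and other response genes 0 and 2 of 5, Myc falling 2.34-fold (adjusted p = 1.03e-15). Neither secretion factor passed. With A-485, 9 of the 77 rose and 51 fell, 77.9% in all against 67.7% of all genes, and 35 of those that fell did so by at least 2-fold, where 20.2% of all genes did. Their median was −0.77, beside −0.11 over all genes. Dkk2, another member of the Dickkopf family, was 18.8-fold lower (25.4 ± 0.11 to 1.48 ± 0.52 CPM, adjusted p = 6.89e-12), the corepressor gene Tle1 18.2-fold (432 ± 9.6 to 25.7 ± 4.3 CPM, adjusted p = 3.35e-15), Rspo3 16.8-fold (adjusted p = 9.76e-12) and the receptor gene Ror2 15.5-fold (281 ± 11 to 19.6 ± 3.2 CPM, adjusted p = 5.46e-15; n = 2 each).

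In mESCs without RAD21 (additional experiment) 23 of 74 tested rose and 25 fell, 64.9% in all against 58.3% of all genes, with a median of 0.00, beside 0.03 over all genes. Porcn, the acyltransferase that attaches the lipid to Wnts, fell 3.63-fold (9.65 ± 0.87 to 2.66 ± 0.31 CPM, n = 12, adjusted p = 1.84e-28) and in the initial experiment 2.15-fold (adjusted p = 1.36e-05). The receptor gene Fzd4 fell 2.10-fold in the additional experiment (adjusted p = 6.61e-15). In NPCs after 1 h of IAA, counted over the first 90 kb, it was 2.31-fold higher (25.5 ± 1.3 to 59.5 ± 1.1 CPM, n = 2, adjusted p = 5.24e-11). At 4 h in NPCs, the time of the mESC value, 0 of 18 tested receptors passed as at least 2-fold higher. Over all genes, 132 of 16148 did. Of the receptors only Ror1 passed as at least 2-fold lower, so Fzd4 was not past the test by 2-fold there. The 2 Fzd4 values printed here differ in both cell type and time. Its difference between cell types at 4 h is not given here. In CTCF-AID cells with IAA, by the fit without a term for same-numbered libraries, 4 of 70 rose and none fell. That is 5.71% against 3.58% of all genes, with Lgr6 3.59-fold higher (adjusted p = 0.00465).

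Genes were also ranked by how closely their changes followed those of Wnt7a in NPCs, by the Euclidean distance between log2 fold changes in the 4 NPC comparisons, which share controls, among 15776 genes. The closest were Ahr (distance 0.765), Cpne8 (0.916), Ccdc85a (1.09), Trpc4 (1.19) and Egfr (1.2). Ahr had −1.18, −2.01 and −2.54 at 1, 2 and 4 h and −3.56 with A-485. For Axin2 over the 8 mESC depletions, among 12785 genes, they were Vangl2 (0.151), Fam149b (0.155), Tet3 (0.166), Ppp1r9b (0.178) and Fry (0.184). Axin2 itself moved by at most 0.41 on the log2 scale in those 8, so that many genes with little change lie close to it.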

How the data were processed

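The authors aligned EU-seq reads to mm10 with BWA, dropped poorly mapped reads with SAMtools 1.4 and rRNA and tRNA reads with bedtools, and counted reads over the gene body of 1 transcript per gene with HTSeq. They deposited raw counts in 62 columns for 60 libraries; 6 columns are limited to the first 90 kb. Whether counting used strand is not given in the sources used here. Column use followed the labels, which describe a different drug for some of the early libraries whose titles name IAA or dTAG13, and dTAG13 doses differ between sources.

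Of the transcripts, 27455 matched GENCODE M21. Groups came from the labels. For each comparison, genes with a mean count above 20 in either group were fitted in edgeR 4.0.16 (TMM, quasi-likelihood test; R 4.3.3), with a term for stranded or unstranded libraries in CTCF-AID, and Benjamini-Hochberg adjusted over all genes tested. Log2 fold changes were centred on the median of expressed genes (mean TPM above 15), whereas p-values test the change before centring. CPM used 1 TMM normalisation over all columns. Where groups are said not to overlap, the share of all genes without overlap was not counted, so this describes the values only. DESeq2 1.42.0, other filters and size factors, the replicate block and left-out libraries were alternatives, and the fitting was tested on simulated data. All 10 members were followed in each comparison, those not named standing within the counts or ranges given. Of other pathway genes, those past the test by at least 2-fold could be named, up to 3 per list and comparison, and a selection is given. Wnt7a was left out of the members counted wherever NPC libraries entered, since it was chosen on them. Where a symbol had 2 rows, the one with more counts was used. The members and lists were chosen with earlier results of these data known.

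Same-numbered CTCF-AID libraries correlated in their deviations from group means (r from 0.540 to 0.832 over 4 pairs, with 2 distinct values). They were taken as paired from the data in the replicate block, while the main fit has no term for pairs. In the other comparisons r was lower. It was at most 0.285 in the additional mESC experiment, where 1 of 12 pairs lay above 0.1, and 0.167 in NPCs at 2 h. Libraries of those comparisons were not taken as paired. The study calls the replicates of CTCF depletion biological. For the other libraries no source used here says that they came from separate cultures, and p-values then measure only the spread between libraries, which may be technical. Libraries differed by more than sampling noise in all 151 replicate pairs (chi-square per degree of freedom 1.44 or more). Reads carry no molecular identifiers, so floors and intervals cover counting error only.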

Additional observations from a re-analysis of the deposited data

Results flagged for a closer look

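In 4-library groups, 3 of the 20 groups of values examined had 1 library far from the others by Dixon's criterion, which chance alone meets in about 1 group in 20. Among CTCF-AID controls, stranded replicate 1 had the highest Wnt7a level at 1.36 CPM (13 reads), and the highest Notum level at 46.8 CPM. Among CTCF-AID libraries with IAA, stranded replicate 2 had the lowest Sp5 level at 31.3 CPM.

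The change after 4 h of IAA differed between NPCs and mESCs, by the difference term of 1 edgeR model, for 6 members on the log2 scale as NPC minus mESC. These were Wnt7b (−0.80), Dkk1 (−3.20), Axin2 (0.42), Lef1 (−1.26), Nkd1 (−0.50) and Tcf7 (0.23). Cell type, medium and experiment cannot be told apart in these differences.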

How the results depend on the processing

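The number of members past the test stayed within 1.5 times under the alternatives tried, apart from those given here. DESeq2 gave 1 in the initial mESC experiment instead of 3, with no adjusted p for Dkk1, 1 instead of 2 in NPCs at 1 h, with no adjusted p for Sp5, 1 instead of 2 in NPCs at 2 h, 0 instead of 1 in YF-AA at 2 h and 0 instead of 2 with AGB1 and dTAG13. Without the count filter NPCs at 2 h gave 4 instead of 2, with Dkk1 and Nkd1 gained, and YF-AA at 2 h gave 0 instead of 1. For CTCF-AID cells, where 2 members passed, the replicate block gave 6, unstranded libraries alone 5, stranded libraries alone 0 and no library type term 1. The replicate block also gave 0 in YF-AA at 2 h. Reversed in sign were Lef1 in NPC against mESC controls (−2.14 with the initial mESC controls) and Sp5 in YF-AA against CTCF-AID controls (0.12 with the stranded controls). In each case the cause was not tested.

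Leaving out 1 library at a time, the counts ranged from 1 to 3 in the initial mESC experiment, from 2 to 2, 1 to 4 and 4 to 4 in NPCs at 1, 2 and 4 h, from 4 to 5 with A-485, and from 0 to 5 in CTCF-AID cells. They ranged from 0 to 1 in YF-AA cells at 2 h and at 4 h, from 0 to 0 with AGB1 and with dTAG13 alone, and from 0 to 2 with both. They ranged from 7 to 8 for NPC against mESC controls, from 5 to 7 for YF-AA against CTCF-AID controls and from 5 to 6 for the difference between cell types.

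Over all genes, DESeq2 called 532 instead of 1310 in the initial mESC experiment, 1103 instead of 2496 and 4080 instead of 6383 in NPCs at 1 and 4 h, 1105 instead of 559 in CTCF-AID, 244 instead of 552 and 331 instead of 713 in YF-AA at 2 and 4 h, and 154 instead of 292 with AGB1 and 361 instead of 907 with both agents. The replicate block called 862 in the initial experiment, 3679 instead of 2328 in NPCs at 2 h, 4554 in CTCF-AID and 21 instead of 11 with dTAG13. Outside CTCF-AID the samples share only a number, although the 2 pairs of NPC libraries at 2 h deviated together (r = 0.167). Replicates 1 and 2 of NPC at 1 h deviated oppositely (r = −0.108), and a crossed pairing, chosen after seeing the data, gave 3496 genes instead of 2496. Unstranded libraries alone called 1146 in CTCF-AID, stranded alone 0 and no library type term 295. The stranded controls gave 3272 instead of 7469 for the YF-AA line, the initial mESC experiment 2877 instead of 5853 for the difference between cell types, and no count filter 17 instead of 11 with dTAG13. Dkk1, Notum and Cdx2 in NPCs and Wnt7a in most mESC lines had few reads per library. Over gene bodies the NPC controls held 18879085 and 21351965 counts, and the additional mESC controls from 6966470 to 19725013. Whether low transcription or depth set the few reads was not tested.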
